A study of Rattus norvegicus with 105 samples.

Results

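The genes described here are 40 members of the cell cycle machinery of the rat, 21 that act in DNA replication and 19 that act in mitosis or mark dividing cells. They were chosen by symbol from the known roles of the genes, with earlier results of these data known. A detector probe belongs to a member when its row name without the trailing number is the member's symbol. Probes were found for 35 of the 40 members, 17 in replication and 18 in mitosis. These are 38 of the 22253 probes of the table, since Aurkb has 4 probes and each other member has 1. Ccne1 (cyclin E1), Mcm7 (a subunit of the replicative helicase), E2f1 (a transcription factor of the G1/S transition), Rfc3 (a subunit of the clamp loader) and Ccnb2 (cyclin B2) were matched by no probe. They have no expression results here, and those with a promoter found enter only the promoter counts below.

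The cells were rat hepatocytes in primary culture (Sprague-Dawley, female), from one commercial lot, plated on collagen and exposed for 24 h in Williams' E medium with fetal bovine serum and insulin, transferrin and selenium. RNA was read with TempO-Seq, in which a pair of short oligonucleotides is joined on each target RNA and the joined pairs are counted by sequencing. In set 1 (72 libraries) the wells held nitromethane (NM) or nitroethane (NE) at 8 concentrations from 0.003 to 10 mM (each about 3 times the one before, including 0.1, 0.3, 1 and 3 mM), plain medium, DMSO (the vehicle), benzo[a]pyrene (BaP) at 50 µM, CITCO at 10 or 20 µM, rifampin at 20 or 40 µM, or WY-14643 (WY) at 50 µM. In set 2 (33 libraries) they held 1-nitropropane (1NP) at the same 8 concentrations, medium, DMSO or WY. Each of the 35 groups had 3 libraries, and every well held cells of the same lot, so the p-values rest on differences among wells of 1 lot and say nothing of variation among animals. The concentrations also follow the rows of the plate, from 0.003 mM in row A to 10 mM in row H, with medium in row A and DMSO in row B, so concentration and row cannot be told apart. NM, NE and 1NP each had plate columns of their own, apart from the controls of their set, so compound and column cannot be told apart either. CITCO at 20 µM and rifampin at 40 µM stood in other rows and columns than the controls and than their lower concentrations. Whether DMSO was also in the nitroalkane wells is not given in the labels, and for that reason each group was compared with both the DMSO and the medium wells of its own set. These control wells are shared by all compounds of a set.

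A cell commits to division when cyclin-dependent kinases inactivate the retinoblastoma proteins and release the E2F factors, which turn on the genes of DNA replication. The MCM proteins are then loaded at origins by Cdc6 and Cdt1 and, with Cdc45 and the GINS proteins, open the DNA, while ribonucleotide reductase, thymidylate synthase and thymidine kinase supply nucleotides. Mitotic genes such as cyclins A and B, the Aurora kinases and the kinesins of the spindle come up later, under the DREAM and MuvB complexes, B-Myb and Foxm1. Most hepatocytes of the adult liver rest outside the cycle and re-enter it after loss of liver mass or in response to growth factors and some nuclear receptor agonists.

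The promoters of 31 of the 40 members were found in RefSeq (GRCr8), as windows from 250 bases before to 50 bases after the start of the gene. They are shown because many members of both lists were lower under NE, as described further on. The counts also include Ccne1, Mcm7, Rfc3 and Ccnb2, which had no probe, and members with too few counts to test. Mcm7 and Rfc3 are among the promoters with an E2F sequence. An E2F sequence (TTCCCGC or TTGGCGC) stood on either strand in 10 of 16 replication promoters (62.5%) and in 3 of 15 mitosis promoters (20%), against 6.26% of all 33469 promoters of that length. The cell cycle homology region (CHR; TTTGAA or TTCGAA, the latter reading the same on both strands) stood in 5 of 16 replication promoters (31.2%) and 10 of 15 mitosis promoters (66.7%), against 19.7% of all. The CCAAT box stood in 10 of 16 (62.5%) and 12 of 15 (80%), against 37.5% of all. The letters are matches and were not tested as binding sites. The 4 promoters below belong to members that were lower under NE at 10 mM, 2 from each list, and run 5′ to 3′ on the strand of the gene from 150 bases before the start to the first base of the gene. Capitals mark E2F, CHR and CCAAT matches on either strand. In Mki67 a CHR match and a CCAAT match overlap, which gives 1 run of 10 capitals. Mcm3 lies at chr9:30733746-30733896 (minus strand), Mcm5 at chr19:13488663-13488813 (plus strand), Top2a at chr10:84473093-84473243 (minus strand) and Mki67 at chr1:199952593-199952743 (minus strand), all in GRCr8.

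Mcm3: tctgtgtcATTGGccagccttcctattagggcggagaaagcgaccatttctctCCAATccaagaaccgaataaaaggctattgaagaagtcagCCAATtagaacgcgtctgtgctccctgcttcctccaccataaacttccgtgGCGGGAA
Mcm5: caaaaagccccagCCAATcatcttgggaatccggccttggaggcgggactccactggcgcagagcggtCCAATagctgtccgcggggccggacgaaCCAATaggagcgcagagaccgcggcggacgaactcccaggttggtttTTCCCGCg
Top2a: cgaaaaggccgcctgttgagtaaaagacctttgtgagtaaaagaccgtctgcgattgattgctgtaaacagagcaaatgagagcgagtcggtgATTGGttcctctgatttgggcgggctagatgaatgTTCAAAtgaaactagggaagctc
Mki67: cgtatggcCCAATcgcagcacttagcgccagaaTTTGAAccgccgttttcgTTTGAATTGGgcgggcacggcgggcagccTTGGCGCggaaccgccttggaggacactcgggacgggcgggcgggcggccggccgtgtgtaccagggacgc

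The Mcm3 and Mcm5 windows each hold an E2F sequence next to the start of the gene and 3 CCAAT matches upstream of it. The Top2a window holds a CHR and a CCAAT match, and the Mki67 window holds all 3 kinds.

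Library totals ran from 5475419 to 11122665 counts, with a median of 8680678, and a count of 3, used as the floor of detection for counting error alone, was worth 0.270 to 0.548 CPM (counts scaled to the total of their library). A few libraries stood apart from their group. In replicate 2 of NE at 10 mM, 21627 probes had a count, when the next highest library had 16558 and the median was 13792, and members near 0 elsewhere read higher in it. 1NP at 10 mM replicate 3 and 1NP at 3 mM replicate 3 had far less of most members than the other wells of their groups. NM at 10 mM replicate 3, at 3 mM replicate 1 and at 1 mM replicate 1, and NE at 0.01 mM replicate 3, also stood apart over all probes. Results that rest on these libraries are given with and without them.

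Several members lay close to the floor of detection. Among the mitosis members, Mki67 (the Ki-67 antigen of cycling cells) had a median of 26.5 CPM over the 105 libraries and a count in every one. Cdk1 (the kinase that drives entry into mitosis) had a count in 93 libraries with a median of 0.340 and a highest level of 1.86 CPM, and Ccnb1 (cyclin B1, its partner) had a count in 24. Kif11 (the kinesin that separates the spindle poles) had a count in 3 of 105 libraries, and 1 of the 4 Aurkb probes had none in any. Cdc20, Bub1 and Ccne2 were likewise mostly under the floor. These members, 7 probes in all, did not pass the filter on low counts in the NE comparisons, which tested 31 of the 38 probes, 16 in replication and 15 in mitosis. In replication, Tyms (67.7 CPM), Rrm1 (57.4) and Pcna (36.4) had the highest medians by probe, but counts of different probes are not on one scale per length, so the genes are not ranked against each other.

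**Figure D1:**
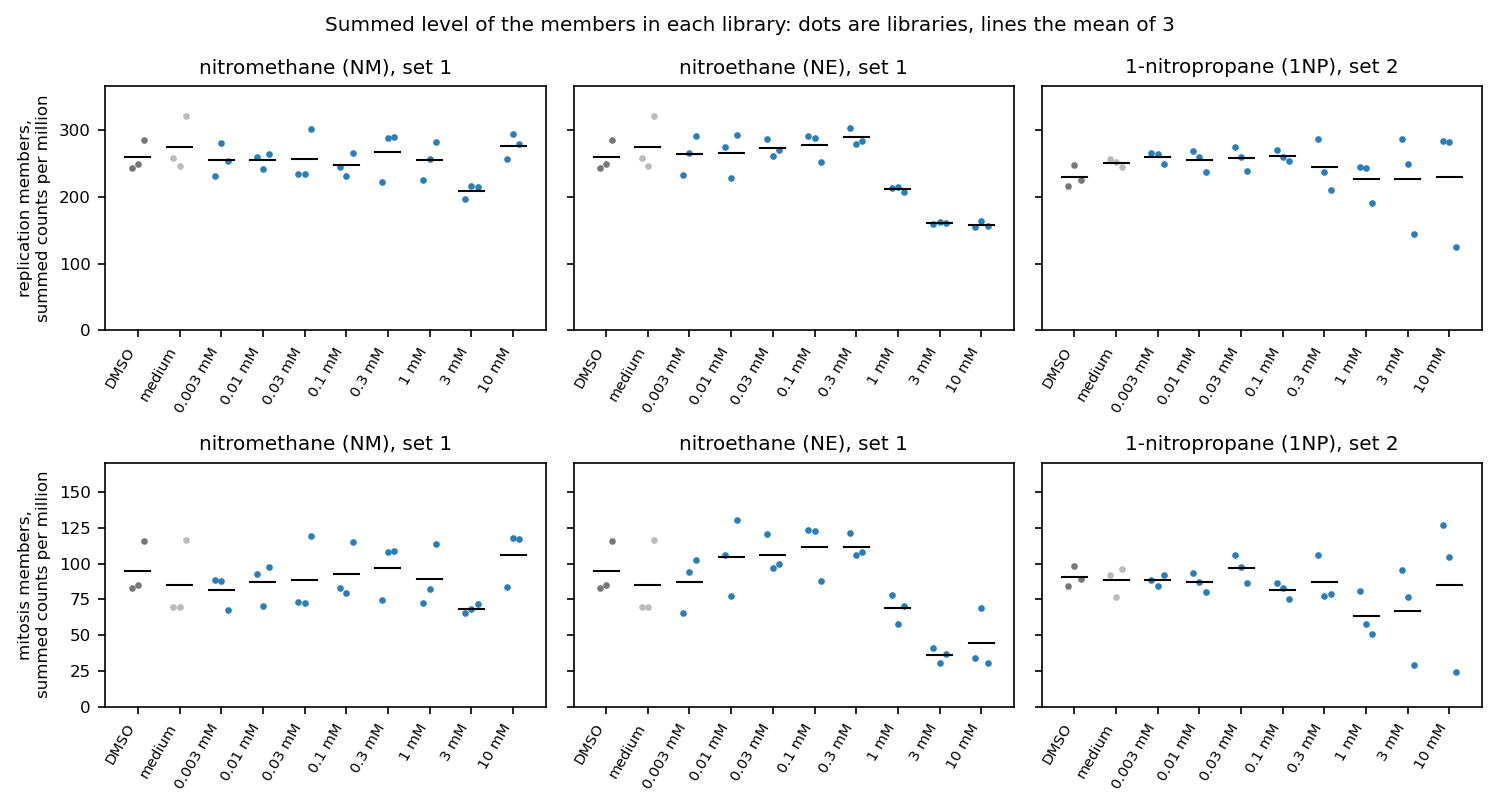
Summed level of the replication members (upper row, CPM) and of the mitosis members (lower row, CPM) in each library, for NM, NE and 1NP from left to right, with DMSO and medium of the same set. Dots are libraries and lines are means of 3. NE at 3 and 10 mM lies under both controls in both lists, and 1 library of 1NP at 3 mM and 1 at 10 mM lie under the other 2.

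At NE 3 and 10 mM the RNA of many members of both lists was lower than in DMSO and in medium. Summed over the replication members, the level was 259 CPM in DMSO and 275 CPM in medium (means of 3), 212 at 1 mM, and 160 and 158 at 3 and 10 mM. The mitosis members summed to 94.8 CPM in DMSO, 85.1 in medium, 68.9 at 1 mM, 36.2 at 3 mM and 44.7 at 10 mM. Each of the 3 libraries at 3 and at 10 mM was under each control library in both sums. For the mitosis sum at 10 mM the margin was small in NE replicate 2, which stood apart. It read 68.8 CPM, against 69.47 and 69.53 in medium replicates 1 and 2, while NE replicates 1 and 3 read 34.4 and 30.9. In a bulk sample, fewer dividing cells and less of these RNAs per cell cannot be told apart.

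At 10 mM, edgeR's quasi-likelihood test with Benjamini-Hochberg adjustment over all probes called 18 of the 31 tested member probes lower against DMSO and 18 against medium, 10 in replication and 8 in mitosis each time, and none higher. Here and in the following, counts of calls and of tests are of probes: the 31 stand for 29 genes, as 3 of the Aurkb probes were tested. In the same comparisons 28.9% and 34% of all probes were called in either direction, and 15.6% and 17.4% were called lower. The median log2 difference was -0.79 for the replication members and -1.02 for the mitosis members against DMSO, and -0.72 and -0.99 against medium, while the median of all probes lay at 0.03 against either control. At 3 mM, 12 probes were lower against DMSO (5 in replication and 7 in mitosis, 2 of the latter for Aurkb, so 11 genes) and 12 against medium (7 and 5, each of another gene), where 6.08% and 11.5% of all probes were called, and 3.03% and 5.38% of all probes were called lower. The medians at 3 mM were -0.80 and -1.46 against DMSO and -0.84 and -1.42 against medium. The count at 3 mM was 6 against DMSO without DMSO replicate 3 or without NE replicate 3, and 7 without NE replicate 2. Against medium it was 6 without medium replicate 3 and 5 without NE replicate 2, and at 10 mM the count against medium was 10 without medium replicate 3. Without the NE libraries that stood apart, among them replicate 2 at 10 mM, the counts against DMSO and medium were 20 and 17 at 3 mM and 20 and 18 at 10 mM, all lower.

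**Figure D2:**
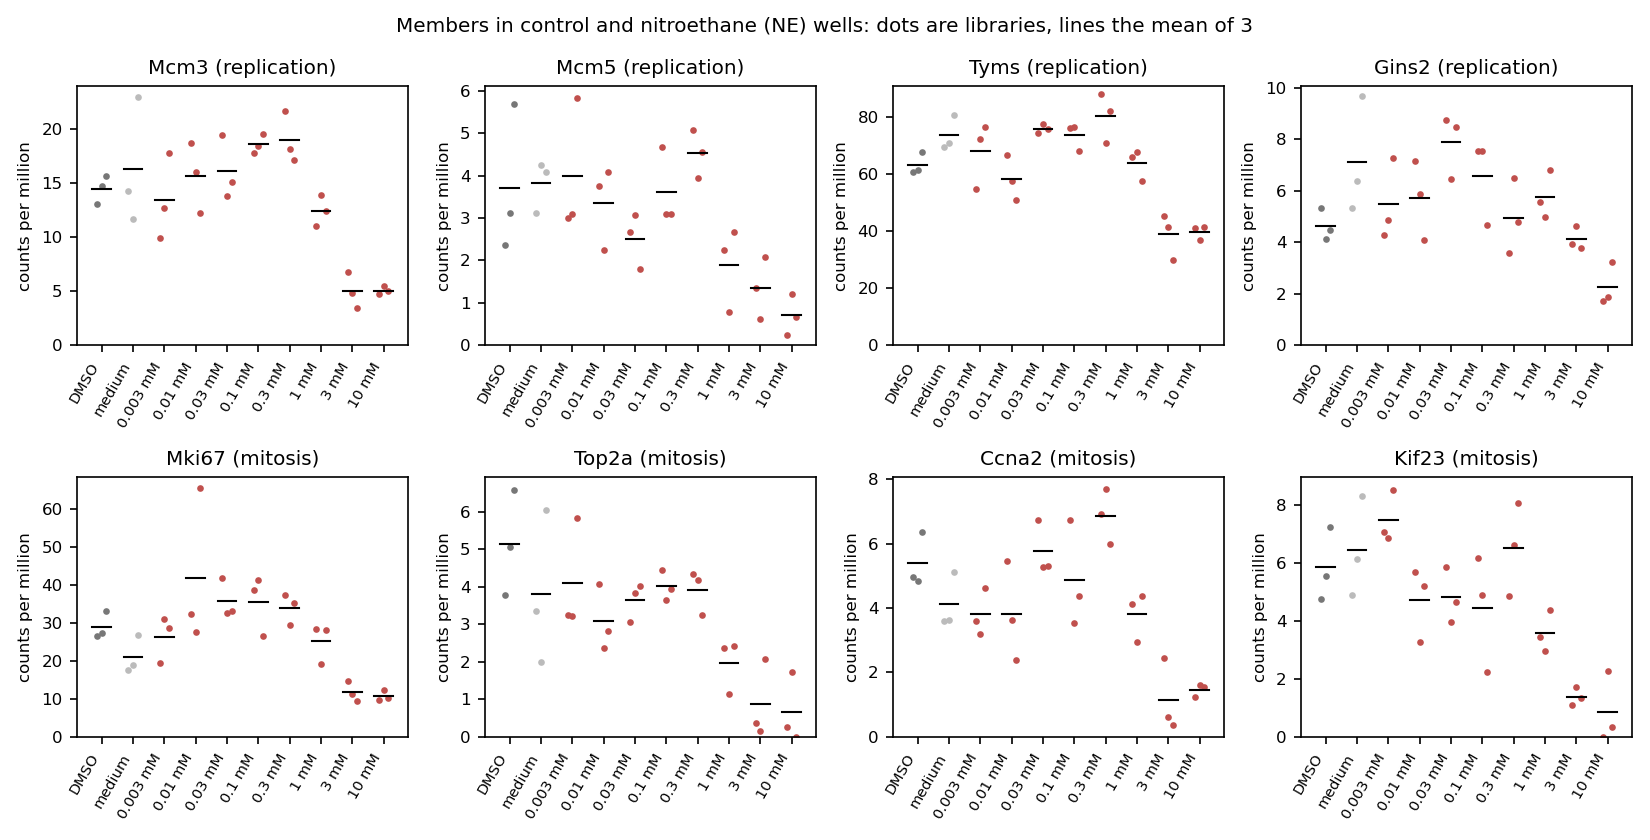
Level in CPM of 4 replication members (upper row) and 4 mitosis members (lower row) in DMSO, medium and the 8 NE concentrations of set 1. Dots are libraries and lines are means of 3. In each panel the 2 lowest means are those of 3 and 10 mM.

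Among the factors that open the DNA, Mcm3, a subunit of the helicase ring, read 13, 14.7 and 15.6 CPM in DMSO, 14.3, 11.7 and 23 in medium, 6.77, 4.79 and 3.42 at NE 3 mM and 4.7, 5.46 and 4.99 at NE 10 mM. Every NE library of these concentrations was under every control library. Mcm3 fell by 1.58 on the log2 scale against DMSO at 10 mM (SE 0.23, adjusted p = 8.66e-06, edgeR) and by 1.7 against medium (SE 0.26, adjusted p = 1.13e-05), and it kept its call in each of the 6 fits that left out 1 library. Mcm5, another subunit, read 2.37, 3.11 and 5.69 CPM in DMSO, 3.13, 4.26 and 4.1 in medium and 0.248, 1.2 and 0.666 at 10 mM, again with no overlap. Its fall at 10 mM was the largest among the replication members, 2.48 against DMSO (SE 0.52, adjusted p = 0.000669) and 2.46 against medium (SE 0.49, adjusted p = 0.000307). At 3 mM, Mcm5 read 1.35, 0.618 and 2.08 CPM and was called against medium (-1.39, adjusted p = 0.0466) but not against DMSO (-1.41, adjusted p = 0.0806).

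The other subunits of the ring differed in how far they moved. Mcm2 read 24.4, 27 and 24.5 CPM in DMSO and 27.1, 29.3 and 28.9 in medium, 14.9, 13.9 and 10.9 at 3 mM and 23.4, 18.5 and 18.2 at 10 mM, so its lowest levels were at 3 mM and not at 10 mM. It fell by 0.92 (adjusted p = 0.00182) and 1.03 (adjusted p = 0.000229) at 3 mM, while at 10 mM the fall of 0.5 against medium was called (adjusted p = 0.0272) and the difference of -0.39 from DMSO was not (adjusted p = 0.0961). Mcm6 read 1.42, 3.34 and 5.13 CPM in DMSO, 2.67, 3.01 and 4.56 in medium and 1.11, 2.26 and 0.777 at 10 mM, where 1 NE library lay within the DMSO range. It fell by 1.35 and 1.35 at 10 mM. Mcm4 read 18.9, 16.8 and 22.7 CPM in DMSO, 20.5, 14.7 and 26 in medium, 11.9, 10.4 and 13 at 3 mM and 10.2, 18.2 and 11.2 at 10 mM, and its falls of 0.65 and 0.66 at 10 mM came with an overlap, since NE replicate 2 lay inside the control range.

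Cdt1, which loads the ring onto origins together with Cdc6, read 3.43, 3.57 and 3.68 CPM in DMSO, 3.48, 2.51 and 4.9 in medium and 0, 1.86 and 0.999 at 10 mM, a fall of 2.0 against DMSO (adjusted p = 0.00758) and 1.97 against medium (adjusted p = 0.0081). Gins2, a part of the GINS complex that joins the moving helicase, read 5.33, 4.15 and 4.46 CPM in DMSO, 5.33, 6.39 and 9.68 in medium, 3.94, 4.64 and 3.79 at 3 mM and 1.73, 1.86 and 3.22 at 10 mM. It was called at 10 mM (-1.06 and -1.63) and not at 3 mM (-0.16 and -0.72). Cdc6, Cdc45, Gins1 and Pole2, a subunit of the leading-strand polymerase, were not called at 3 or 10 mM against either control. All 4 were higher in NE 10 mM replicate 2 than in the other libraries of its group: Cdc6 read 0, 3.6 and 0.888 CPM there in replicates 1, 2 and 3, and 0.123, 0.309 and 0.489 at 3 mM, against 1.78, 1.73 and 1.78 in DMSO.

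The genes of nucleotide supply and the sliding clamp also moved, most of them by less. Tyms (thymidylate synthase) read 60.7, 61.4 and 67.7 CPM in DMSO, 69.6, 70.8 and 80.6 in medium, 45.2, 41.6 and 30 at 3 mM and 41.1, 37 and 41.3 at 10 mM. It fell by 0.68 and 0.84 at 3 mM and by 0.72 (SE 0.16, adjusted p = 0.00116) and 0.88 (SE 0.16, adjusted p = 0.000108) at 10 mM, with no overlap between NE and control libraries. Rrm1, the large subunit of ribonucleotide reductase, read 57.4, 51.4 and 70.3 CPM in DMSO, 64.1, 50.5 and 69.8 in medium and 37.4, 30.4 and 39.9 at 10 mM, a fall of 0.77 and 0.76. Rrm2, the small subunit that cycles with S phase, read 1.66, 3.23 and 3.57 CPM in DMSO, 3.48, 1.75 and 5.01 in medium and 0.493, 0.309 and 0.489 at 3 mM, where it fell by 2.63 (adjusted p = 0.0333) and 2.85 (adjusted p = 0.0122). At 10 mM it read 0.124, 4.53 and 0.444 CPM: replicates 1 and 3 were under the floor or just above it, replicate 2 was as high as the controls, and no call was made. Tk1 (thymidine kinase) read 6.16, 5.64 and 6.91 CPM in DMSO, 4.06, 4.76 and 5.35 in medium and 3.59, 4.13 and 2.55 at 10 mM, called against DMSO (-0.94, adjusted p = 0.0096) and not against medium (-0.48). Pcna, the sliding clamp of the polymerases, read 39.9, 48.7 and 48.2 CPM in DMSO, 36.4, 41.5 and 51 in medium, 29.2, 29 and 28.8 at 1 mM and 27.7, 24.1 and 28.5 at 10 mM, and fell at 10 mM by 0.81 (adjusted p = 0.000527) and 0.67 (adjusted p = 0.00396).

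Among the mitosis members, Mki67 read 26.5, 27.3 and 33.1 CPM in DMSO, 17.5, 18.9 and 26.6 in medium, 14.7, 11.1 and 9.3 at NE 3 mM and 9.66, 12.4 and 10.1 at 10 mM. All NE libraries of 3 and 10 mM were under all control libraries. It fell at 10 mM by 1.5 against DMSO (SE 0.29, adjusted p = 0.000321) and by 0.99 against medium (SE 0.30, adjusted p = 0.0124), and at 3 mM by 1.29 against DMSO (adjusted p = 0.00717), with -0.77 against medium (adjusted p = 0.101). Top2a, the topoisomerase that separates the replicated chromosomes, read 3.79, 5.07 and 6.58 CPM in DMSO, 3.36, 2.0 and 6.04 in medium, 0.37, 0.154 and 2.08 at 3 mM and 0.248, 1.73 and 0 at 10 mM. Its fall at 10 mM was 3.11 against DMSO (SE 0.64, adjusted p = 0.000551) and 2.63 against medium (SE 0.67, adjusted p = 0.00346), and 2 of its 3 NE libraries there were under the floor of detection, so the size is uncertain. Ccna2 (cyclin A2, of S phase and early mitosis) read 4.97, 4.84 and 6.36 CPM in DMSO, 3.6, 3.63 and 5.12 in medium, 2.46, 0.618 and 0.367 at 3 mM and 1.24, 1.6 and 1.55 at 10 mM. It fell by 2.17 and 1.73 at 3 mM and by 1.93 (adjusted p = 0.000644) and 1.49 (adjusted p = 0.0062) at 10 mM, with no overlap.

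The machinery of the spindle and of cell separation was lower as well. Kif23, the kinesin of the midzone needed for cytokinesis, read 4.74, 5.53 and 7.25 CPM in DMSO, 4.87, 6.14 and 8.31 in medium, 1.11, 1.7 and 1.35 at 3 mM and 0, 2.26 and 0.333 at 10 mM. It fell at 10 mM by 2.9 against DMSO (SE 0.53, adjusted p = 0.000158) and 2.99 against medium (SE 0.53, adjusted p = 7.81e-05), and at 3 mM by 2.06 and 2.14. Without NE replicate 2 the fall at 10 mM was 4.92 and 5.02, a size that rests on few counts, as the other NE libraries read 0 and 0.333 CPM. Aurkb (Aurora kinase B) was measured by 4 probes, which share their target gene. The probe with the most counts read 8.64, 10.7 and 12.2 CPM in DMSO, 9.39, 9.27 and 16.4 in medium, 3.45, 2.47 and 3.67 at 3 mM and 2.48, 9.05 and 2.77 at 10 mM, and fell by 1.68 and 1.78 at 3 mM and by 1.26 and 1.37 at 10 mM, where NE replicate 2 stood at control level. A further Aurkb probe was called at 3 mM against DMSO (-1.91, adjusted p = 0.0146) and read -0.51 at 10 mM with no call, 1 more was not called against either control, and the last had no counts.

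Birc5 (survivin, Aurora B's partner) read 6.75, 7.72 and 11.9 CPM in DMSO, 7.19, 7.89 and 14.7 in medium and 4.83, 3.86 and 5.1 at 10 mM, a fall of 0.98 and 1.1 with no overlap. Cenpa, the histone of centromeres, read 10.3, 7.14 and 14.9, then 7.07, 7.14 and 17.7 and 6.81, 6.52 and 4.22 CPM in the same order, a fall of 0.95 and 0.87. Bub1b, of the spindle checkpoint, read 2.96, 2.88 and 5.58 CPM in DMSO, 4.52, 2.38 and 5.58 in medium and 0.495, 2.53 and 0.999 at 10 mM, a fall of 1.61 and 1.69, with 1 NE library inside the range of medium. Aurka (Aurora kinase A), Plk1 (Polo-like kinase), Kif20a, Foxm1 and Ube2c (a ubiquitin-conjugating enzyme of the anaphase complex) were called in none of these 4 comparisons. Ube2c and Kif20a read 0.371, 5.46 and 0 and 0.743, 3.73 and 0.111 CPM at 10 mM, both highest in replicate 2.

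**Figure D3:**
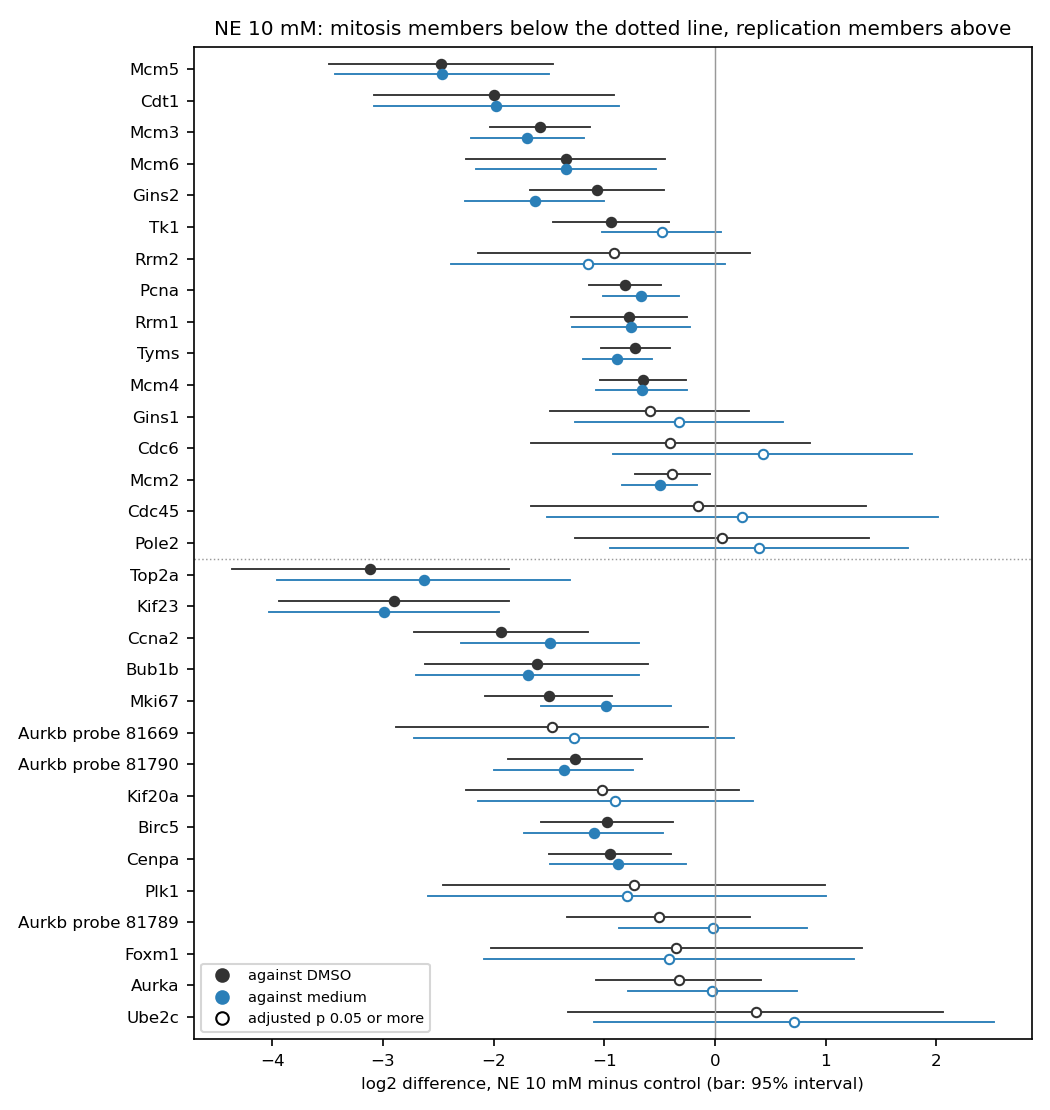
Log2 difference of NE 10 mM from DMSO (dark) and from medium (blue) for each of the 31 tested member probes, with bars for the 95% interval. Filled points have an adjusted p under 0.05. The called points, 18 against each control, all lie left of 0.

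Against both controls at once, 17 probes were called at 10 mM and 9 at 3 mM, and 7 were called against both controls at both concentrations: Mcm3, Mcm4, Tyms, Top2a, Ccna2, Kif23 and the Aurkb probe with the most counts. At 10 mM, 10 of the 18 probes held their call against DMSO in every fit with 1 library left out, and 10 of 18 did against medium. At 3 mM, 4 of 12 and 5 of 12 did. These counts concern the same NE wells, and the pairs of comparisons share them. How many of all probes met the same rules was not counted, so these counts have no background share beside them.

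At 1 mM, edgeR called 2 members against DMSO, where 2.81% of all probes were called. Tk1 fell by 1.09 (adjusted p = 0.0216), with 3.55, 3.29 and 2.43 CPM, and Pcna fell by 0.74 (adjusted p = 0.0116). Tk1 kept this call in 1 of the 6 fits with a library left out and Pcna in 4. Against medium, where 0.219% of probes were called, no member was called by edgeR (6 at an unadjusted p under 0.05) or by DESeq2. From 0.003 to 0.3 mM no member was called by edgeR against either control, with 0 to 4 at an unadjusted p under 0.05, and DESeq2 called 1, at 0.3 mM against DMSO. Of all probes edgeR called 2.68% to 5.29% at these concentrations against DMSO and 0% to 0.0324% against medium.

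Over the ranks of the 8 NE concentrations, with no control in the fit, 18 members fell (10 in replication, 8 in mitosis), where 26.1% of all probes had a slope that was called. The steepest were Kif23, at -0.33 on the log2 scale per step (SE 0.07, adjusted p = 0.00114), Top2a at -0.32, Bub1b at -0.28, Cdt1 at -0.27 and Mcm5 at -0.26. Without the 10 mM wells 2 remained called, Rrm1 and Kif23, without replicate 2 of every concentration 11 were called, and without replicate 3, 9. In the plot of levels by NE concentration, the change lies mostly in the wells of 3 and 10 mM, and at 1 mM the levels lie between those and the controls for some members.

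Other genes of the same processes were read from lists chosen by function. Of 38 or 39 tested probes of other mitosis genes, 20 were lower and none higher at NE 3 mM against DMSO, 19 lower against medium, and at 10 mM 20 lower and 1 higher against DMSO and 17 lower and 1 higher against medium. The largest falls at 10 mM were in Dlgap5 (-2.86 and -3.14), a spindle protein, Hmmr (-2.51 and -2.0), Cdca3 (-2.4 and -2.21) and the kinesin Kif22 (-2.31 and -2.13). The median of that list was -1.0 against DMSO at 10 mM and -1.32 at 3 mM. Of 33 tested probes of other replication genes, 3 and 4 were lower at 3 mM, and 12 and 11 at 10 mM, against DMSO and medium, with none higher. Among all probes, 3.03% and 5.38% were called lower at 3 mM and 15.6% and 17.4% at 10 mM. They included Clspn (claspin of the replication checkpoint; -2.96 and -2.62), Uhrf1, which guides maintenance methylation (-1.87 and -2.06), and the histone chaperone Asf1b (-1.69 and -1.35).

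Upstream of replication the counts are small and are read against all probes, of which 15.6% and 17.4% were called lower at NE 10 mM, and 13.3% and 16.6% higher, against DMSO and medium. There, 5 of 10 tested probes of G1 cyclins and kinases were lower against each control, and 2 and 1 were higher. Ccnd1 (cyclin D1) fell by 1.86 against DMSO (adjusted p = 1.39e-07) and 2.02 against medium (adjusted p = 1.32e-08), Ccnd2 by 1.29 and 1.4, Cdk6 by 1.25 and 1.05, and Cdk2 by 0.97 and 1.3. In the list of Cdkn genes, named after inhibitors of these kinases, none was called higher. Of 5 tested probes, 2 were lower against DMSO (Cdkn3, -1.82, and Cdkn2b, -1.36) and 3 against medium, with Cdkn1a (p21) at -1.05. Whether each of them acts as a brake in these cells was not tested. Of 11 tested probes of the Rb and E2F family, 3 and 4 were lower, but the median of the list was -0.02 against DMSO, with 6 of 11 negative, and -0.13 against medium, with 7 of 11 negative. The lower ones included the E2F partner Tfdp1 (-1.07 and -0.69 for 1 of its 2 probes), E2f4 (-0.81 and -0.81) and Lin9 of the MuvB complex (-0.72 and -0.88). In the list of DNA damage and checkpoint genes 3 of 19 were higher and 4 lower against DMSO, and 2 higher and 5 lower against medium, shares near those of all probes. Within it Ccng1 (cyclin G1, a p53 target) rose by 2.53 and 3.29, and Exo1 (a DNA repair exonuclease) fell by 2.31 and 1.83.

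Markers of cell types were read beside these results. The hepatocyte markers (9 probes, none at 0) summed to 14610 to 15855 CPM in DMSO, 8639 to 10815 in medium, 11257 to 14968 at NE 3 mM and 6533 to 8782 at NE 10 mM. That sum is carried by a few abundant probes, and the 9 did not go one way: at NE 10 mM 2 were called higher and 5 lower against DMSO (median -0.67), and 4 higher and 1 lower against medium (median 0.38). Tat averaged 19.3 CPM in DMSO, 16.2 in medium and 60.02 at NE 10 mM, while Alb averaged 3604, 2346 and 1831 CPM. The bile duct markers (11 probes) summed to 835 to 987 CPM in DMSO, 998 to 1135 in medium, 568 to 702 at NE 3 mM and 497 to 524 at NE 10 mM. Among them Sox9 fell by 1.57 and 1.87 at 10 mM and Krt19 by 0.82 and 2.21. The part of these shifts in the fall of the cell cycle genes was not tested. Endothelial (9 probes, 6 at 0 in all DMSO libraries, sum at most 0.710 CPM) and lymphocyte markers (9 probes, 8 at 0, at most 0.118 CPM) were at or near 0 in DMSO, and so were most Kupffer cell markers (12 probes, 4 at 0, sum 3.92 to 5.80 CPM). In NE 10 mM replicate 2 these 3 sums were 15.3, 18.6 and 29.8 CPM. The stellate cell markers (10 probes, 4 at 0 in DMSO) summed to 400 to 415 CPM in DMSO, 334 to 382 in medium and 242 to 311 at NE 10 mM, nearly all of it from 1 probe, Reln, which averaged 406, 355 and 265 CPM, while no other stellate probe averaged above 4 CPM in these groups.

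NM, the shortest of the 3 nitroalkanes, gave no called member at any concentration against DMSO or medium in edgeR, and none in DESeq2. From 0.003 to 1 mM edgeR called 1.01% to 3.88% of all probes against DMSO. Against medium it called 0% to 0.00818% there, so hardly any probe of the whole table was called. At 10 mM, where 7.19% and 0.662% of all probes were called, 3 and 2 of 29 tested probes had an unadjusted p under 0.05 in edgeR, and 1 was called against DMSO without NM replicate 1. At 3 mM, where 0.679% and 2.32% were called, 6 and 3 did. The sums at NM 3 mM were 196 to 216 CPM for the replication members, under every DMSO and medium library, and 65.9 to 71.9 CPM for the mitosis members, under every DMSO library and overlapping with medium. The medians there were -0.41 for replication (13 of 15 negative) and -0.49 for mitosis (14 of 14 negative) against DMSO, and -0.31 for each list against medium, with 11 of 15 and 12 of 14 negative. At 10 mM the sums were 256 to 294 and 83.7 to 118 CPM, which overlapped with both controls. Mki67 read 26.2, 29.7 and 41.7 CPM at NM 10 mM, a log2 difference of 0.05 from DMSO (95% interval -0.38 to 0.49) and 0.57 from medium (0.11 to 1.03). Mcm3 read 13.9, 17.4 and 19.7 CPM (0.12, interval -0.32 to 0.57), Mcm5 2.55, 5.59 and 5.73 CPM (0.2, -0.62 to 1.02) and Top2a 3.44, 5.14 and 5.99 CPM (-0.19, -0.97 to 0.58). These intervals leave out falls of the size NE gave in Mcm3 and Mcm5. Pcna read 38.2, 37.2 and 16.3 CPM at NM 10 mM, with replicate 3, which stood apart, lowest (-0.66, adjusted p = 0.142), while the same replicate had the highest Mcm2, 30.4, 31.5 and 53.9 CPM. No slope of a member over the NM concentrations was called by edgeR or DESeq2, with 0 at an unadjusted p under 0.05, where 9.88% of all probes were called. Ccng1 rose under NM at 10 mM as it did under NE, by 2.43 and 3.19.

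NE and NM differ by 1 carbon in the chain and stand in the same set, so they were compared directly at each of the 8 concentrations. At 10 mM, 6 of 27 tested probes were lower, each of another gene, under NE than under NM, where 11.7% of all probes were called, and 15 had an unadjusted p under 0.05. Mcm3 was lower by 1.69 on the log2 scale (95% interval -2.23 to -1.16, adjusted p = 0.00628), and every NE library was under every NM library. Mki67 differed by -1.55 (-2.04 to -1.06, adjusted p = 0.00666), Mcm5 by -2.67 (-3.92 to -1.42, 0.0302), Kif23 by -3.35 (-5.06 to -1.64, 0.0422), Gins2 by -1.66 (-2.54 to -0.77, 0.0491) and Tyms by -0.99 (-1.39 to -0.58, 0.0184). The levels under NM at 10 mM were 7.32, 9.39 and 9.24 CPM for Kif23, 6.77, 5.26 and 10.8 for Gins2 and 72.7, 80.6 and 93.6 for Tyms, none of which overlapped with NE. Top2a (-2.91, -4.75 to -1.07, adjusted p = 0.0839) and Ccna2 (-1.43, -2.31 to -0.56, adjusted p = 0.0753) missed the threshold. For Pcna the difference was -0.14 (-0.83 to 0.55) and for Rrm1 -0.49 (-1.11 to 0.13), neither called.

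The count of 6 depends on single libraries. It was 1 without NE replicate 1, 2 without NE replicate 3, 2 without NM replicate 2 and 11 without NM replicate 3. Without NE replicate 2 and NM replicate 3, the libraries that stood apart, it was 19. Shares of all probes called in these fits are not given here. Mcm3 was called in all 6 fits with 1 library left out and Mki67 in 5. At 3 mM no member was called between NE and NM by edgeR or DESeq2, where 0.0179% of all probes were called, and 8 had an unadjusted p under 0.05 in edgeR. At 3 mM the difference was -0.84 for Mcm3 (-1.49 to -0.19), -0.76 for Mki67 (-1.3 to -0.22) and -1.47 for Ccna2 (-2.76 to -0.18). Differences as large as those at 10 mM were within the interval for Ccna2. For Mcm3 and Mki67 they lay outside it. These normal intervals on 6 libraries can be narrower than the test implies, so such differences are not excluded. From 0.003 to 1 mM no member was called by either tool, with 0 to 4 at an unadjusted p under 0.05 in edgeR. Of all probes edgeR called 0% to 0.00878% in these comparisons.

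**Figure D4:**
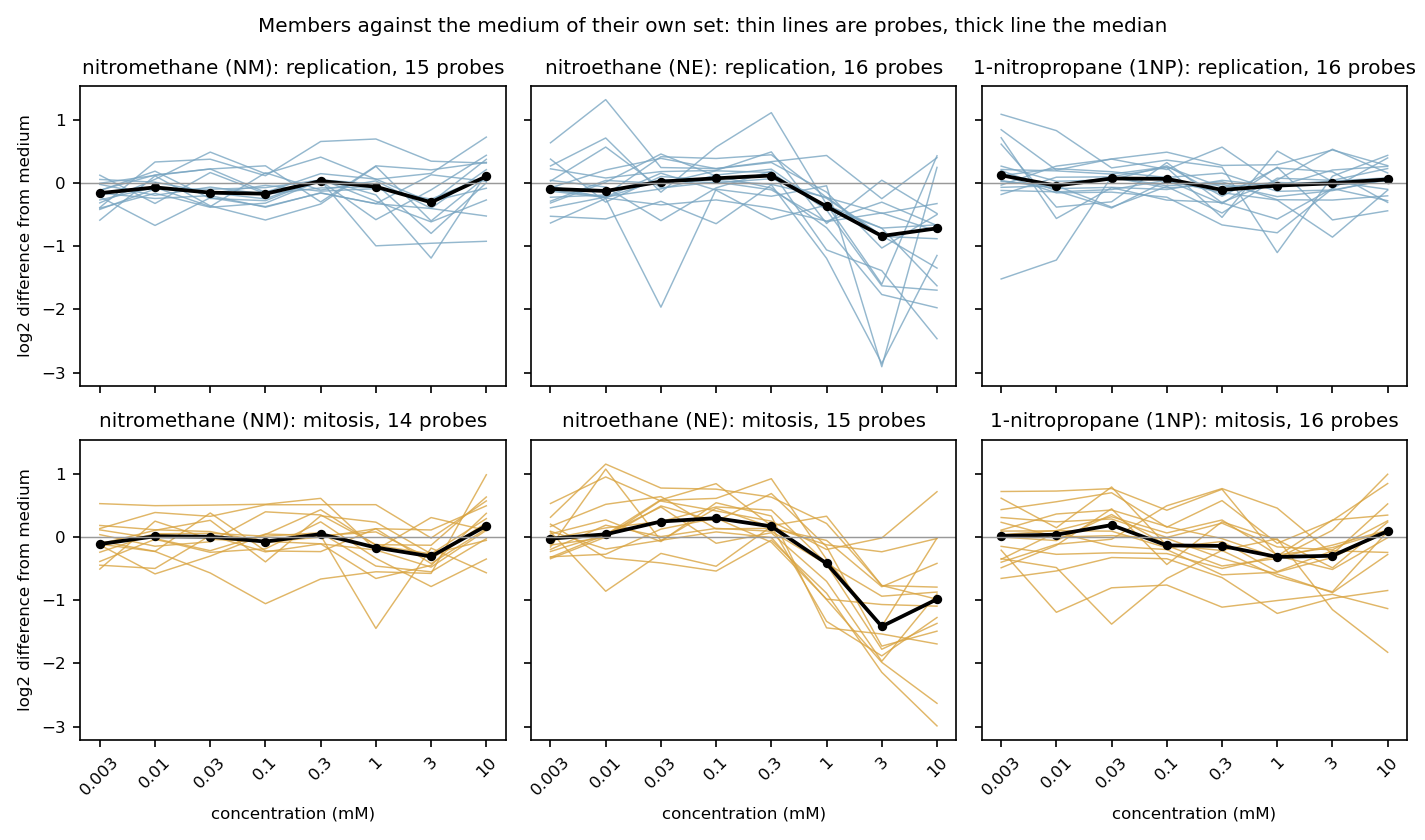
Log2 difference of each member probe from the medium of its own set over the 8 concentrations of NM, NE and 1NP (left to right), replication members above and mitosis members below. Thin lines are probes and the thick line is their median. The medians of NE reach -0.84 and -1.42 at 3 mM, while those of NM and 1NP stay between -0.32 and 0.19.

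1NP, the longest of the 3, was measured in set 2. At 10 mM against DMSO, where 2.17% of all probes were called, 1 of 31 tested probes was called: Tk1 rose by 1.41 (SE 0.32, adjusted p = 0.0177). Tk1 read 7.42, 7.33 and 3.52 CPM at 10 mM, 1.67, 2.8 and 2.06 in DMSO and 3.84, 7.27 and 4.79 in medium, so it was higher than in DMSO in every library and overlapped with medium. The call was lost without 1NP replicate 1 or 2, or without DMSO replicate 4 or 6. Against medium, where 10.2% of all probes were called, no member was called by edgeR or DESeq2 at 10 mM, and none had an unadjusted p under 0.05. At 3 mM none was called by edgeR against DMSO or medium, where 0.57% and 0.223% of all probes were called, with 3 and 0 at an unadjusted p under 0.05. DESeq2 called 1 and 0. From 0.01 to 1 mM none was called by edgeR against either control, with 0 to 3 at an unadjusted p under 0.05, and DESeq2 called at most 1, against DMSO. Of all probes edgeR called 0.405% to 5.09% at these concentrations against DMSO and 0% to 0.19% against medium. No slope over the 1NP concentrations was called by edgeR or DESeq2, with 0 at an unadjusted p under 0.05, where 4.77% of all probes were called.

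The libraries of 1NP at 10 mM disagreed among themselves. The replication members summed to 284, 281 and 124 CPM in replicates 1, 2 and 3, and the mitosis members to 127, 104 and 24.6. Mki67 read 37.2, 31.1 and 7.15 CPM, against 31.3, 37.1 and 31 in DMSO and 24.2, 20.5 and 28.7 in medium. Kif23 read 5.67, 5.02 and 0.352, Top2a 5.4, 6.51 and 0.469, Ccna2 5.94, 5.7 and 0.469 and Mcm3 20, 15.7 and 5.74 CPM. Replicate 3 was under every control library of set 2 in these 5 members, and replicates 1 and 2 were not. At 3 mM replicate 3 was again the low library, with 24.2, 25.4 and 12.3 CPM for Mki67, 5.45, 2.99 and 0.118 for Top2a and 17.1, 13.3 and 6.14 for Mcm3. The bile duct markers summed to 476 to 1142 CPM over the libraries of 1NP at 10 mM, and their part was not tested.

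The effect of 1NP against its DMSO was compared with that of NE and of NM against theirs, since the compounds stand in different sets. At 10 mM no member differed between 1NP and NE by edgeR (8 at an unadjusted p under 0.05), where 0% of all probes were called, and DESeq2 called 1. The difference was 1.66 for Mcm3 (95% interval 0.78 to 2.55), 1.03 for Mki67 (-0.07 to 2.14) and 2.97 for Top2a (0.65 to 5.29), positive values meaning a higher level under 1NP relative to its control. Without 1NP replicate 3 the count was 17, and without NE replicate 2 as well it was 22, all of them relatively higher under 1NP. At 3 mM the count was 0 by either tool (8 at an unadjusted p under 0.05), where edgeR called 0% of all probes. Without 1NP 3 mM replicate 3 the count was 8. Shares of all probes called without these libraries are not given here, so 17, 22 and 8 cannot be set against a background. Between 1NP and NM at 10 mM no member was called by edgeR (2 at an unadjusted p under 0.05), where 0% of all probes were called. DESeq2 called no member either, and 1 was called without the libraries that stood apart. The difference was -0.03 for Mcm3 (-0.96 to 0.89) and -0.52 for Mki67 (-1.66 to 0.62). These intervals are wide, and a missing call does not show that the compounds act alike.

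At the lowest concentration 1NP differed from DMSO of set 2 in 20% of all probes and from medium in 0.00824%. Cdc6 (+2.2), Gins1 (+1.38) and Tk1 (+1.19) were called higher than DMSO at 0.003 mM, and no member was called against medium by edgeR or DESeq2, with 0 at an unadjusted p under 0.05. Cdc6 read 0.239, 0.559 and 0.771 CPM in DMSO, 0.791, 1.48 and 2.61 in medium and 3.1, 2.28 and 2.46 at 0.003 mM. Its call was lost whichever of the 6 libraries was left out, Gins1 kept its call in 1 of 6 such fits and Tk1 in 4. Medium itself differed from DMSO in set 2 in 24% of all probes, with Ube2c (+1.9) and Tk1 (+1.18) higher and Mki67 lower (-0.53), so the DMSO wells of set 2 were low in Tk1 against both. Of these 3 calls 0 were left without DMSO replicate 6 or medium replicate 5 and 1 without DMSO replicate 4 or 5, and the count was 5 without medium replicate 6. In set 1 medium differed from DMSO in 7.06% of all probes and in no member by edgeR or DESeq2, with 1 at an unadjusted p under 0.05, and in 1 member without medium replicate 3. The effects of 1NP at 0.003 mM against DMSO and of NM differed in 3 members, where 6.53% of all probes did, and those of 1NP and NE in 1 member at 0.03 mM (5.4%) and 3 at 0.1 mM (15.4%). All of these comparisons share the DMSO wells of set 2.

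Few members were called under each reference compound. BaP, an agonist of the aryl hydrocarbon receptor whose metabolites bind DNA, was followed by lower Mki67: 12.6, 9.66 and 13.3 CPM, under every DMSO and medium library, a fall of 1.35 against DMSO (SE 0.20, adjusted p = 1.11e-05) and 0.85 against medium (SE 0.20, adjusted p = 0.0023). Tyms went the other way, at 139, 118 and 104 CPM, above every control library, a rise of 0.87 (SE 0.14, adjusted p = 3.60e-05) and 0.69 (SE 0.14, adjusted p = 0.000322). Against DMSO 4 members were called of 31 tested probes, where 9.17% of all probes were, and against medium these 2 of 31, where 19.7% were. The count against DMSO lay near the share of all probes, and the count against medium lay under it. The other 2 were Ccna2 (-1.22, adjusted p = 0.0493), with 2.61, 3.61 and 1.01 CPM, and Pcna (-0.48, adjusted p = 0.0166), with 30.5, 32.2 and 39.6 CPM. With the replicate number as a block Ccna2 was not called (adjusted p = 0.0584). The count was 2 without BaP replicate 1, DMSO replicate 2 or DMSO replicate 3 against DMSO, and 4 without BaP replicate 3 against medium, while Mki67 and Tyms were called in all 6 fits with a library left out against each control. Over the lists, the medians under BaP were -0.34 for replication and -0.35 for mitosis against DMSO (14 of 16 and 15 of 15 negative), and -0.33 and -0.36 against medium (12 of 16 and 13 of 15 negative).

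Among the wider lists, Cdkn1a (p21, the p53-induced kinase inhibitor) rose under BaP by 1.19 against DMSO (adjusted p = 0.00375) and was not called against medium (0.55, adjusted p = 0.152). Mdm2, another p53 target, rose by 0.73 and 0.56. Exo1 fell by 1.99 and 1.51, and Cdca3 by 1.66 and 1.48. Of 39 tested probes of other mitosis genes 4 were lower against each control and none higher, and of 33 of other replication genes 3 were lower. Among all probes 5.07% were called lower against DMSO and 10.4% against medium, so the counts against medium were near the background. The bile duct marker Sox9 was lower by 0.72 and 1.03 in the same wells, and its part was not tested.

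CITCO, an agonist of the human CAR receptor with a weaker action on the rat receptor per the labels, was followed at 20 µM by 2 lower members against DMSO, where 0.843% of all probes were called, and 5 against medium, where 14.7% were. These were 2 and 5 of 31 tested probes, and 0.471% and 7.42% of all probes were called lower. Mcm3 read 6.07, 5.5 and 8.36 CPM, under every control library, a fall of 1.14 against DMSO (SE 0.23, adjusted p = 0.00773) and 1.28 against medium (SE 0.23, adjusted p = 0.000174). Ccna2 read 0.552, 1.32 and 2.4 CPM and fell by 1.92 and 1.49, again with no overlap. Rrm2 (-1.73), Tyms (-0.62) and Mcm2 (-0.55) were called against medium only, with Tyms at -0.44 against DMSO (adjusted p = 0.157). The count against DMSO was 0 without CITCO replicate 2 and 1 without CITCO replicate 1, DMSO replicate 2 or DMSO replicate 3. Against medium it was 3 without CITCO replicate 1 or 2 or medium replicate 3. Mki67 read 17.2, 22.1 and 23.1 CPM and was called against neither. The medians at 20 µM were -0.40 for replication and -0.56 for mitosis against DMSO, with 14 of 16 and 15 of 15 probes negative, and -0.36 and -0.40 against medium, with 13 of 16 and 13 of 15 negative. With 9 of 31 at an unadjusted p under 0.05 against each control, most of these differences were not called. At 10 µM no member was called by edgeR or DESeq2, with 1 and 0 at an unadjusted p under 0.05. Of all probes edgeR called 0.149% against DMSO and 2.58% against medium at that concentration.

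**Figure D5:**
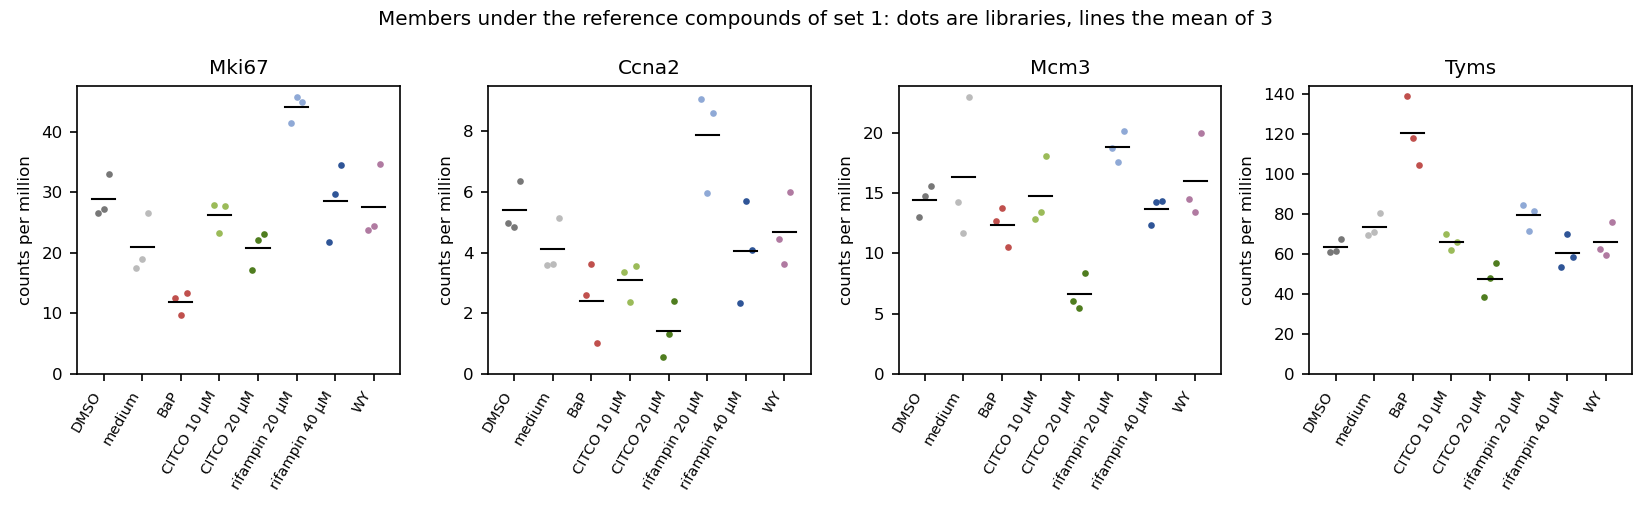
Level in CPM of Mki67, Ccna2, Mcm3 and Tyms in the control and reference compound wells of set 1. Dots are libraries and lines are means of 3. BaP is lowest in Mki67 and highest in Tyms, CITCO at 20 µM is lowest in Ccna2 and Mcm3, and rifampin at 20 µM is highest in Mki67.

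Rifampin, an agonist of the human PXR receptor, stood with the highest sums of the series at 20 µM, 313 CPM for the replication members and 147 CPM for the mitosis members (means of 3). Mki67 read 41.4, 45.8 and 45 CPM, above every control library, and was called against medium (+1.06, adjusted p = 0.00683), where 0.273% of all probes were called, and not against DMSO (+0.56, adjusted p = 0.103), where 2.87% were. Against DMSO 0 members were called by edgeR (6 at an unadjusted p under 0.05) or by DESeq2. The call against medium was lost without medium replicate 1 or 2 or rifampin replicate 2. The medians were 0.28 for replication and 0.56 for mitosis against DMSO, and 0.20 and 0.66 against medium. At 40 µM the sums were 261 and 94.3 CPM and no member was called by edgeR or DESeq2, with 1 and 3 at an unadjusted p under 0.05. Of all probes edgeR called 1.69% against DMSO and 3.31% against medium at that concentration.

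WY, an agonist of PPARα, was present in both sets. In set 1 no member was called by edgeR or DESeq2 against either control, with 1 at an unadjusted p under 0.05 each time, and 1 was called against DMSO without WY replicate 3. Of all probes edgeR called 4.88% against DMSO and 5.8% against medium in that set. In set 2, titled 50 µM but with 100 in the library names, Ccna2 read 5.19, 9.28 and 7.49 CPM against 4.29, 3.64 and 1.89 in medium and 3.47, 6.49 and 4.24 in DMSO. It was called against medium (+1.23, adjusted p = 0.0183), where 16.9% of all probes were called, and no member was called against DMSO by edgeR or DESeq2 (3 at an unadjusted p under 0.05), where 0.901% were. Against medium the count was 4 without medium replicate 6, 2 without WY replicate 4 and 0 without WY replicate 5.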

How the data were processed

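Raw counts of TempO-Seq probes were deposited by the authors as a single table of 22253 probes and 105 libraries, with no normalization per the file header. The submitters' processing notes list DESeq2 1.28.1, R 3.5.3, Bowtie and FastQC without saying what each did, and the genome build is not given in the sources used here. The nitroalkane titles give µM and the protocol mM, which is followed here. The protocol gives 0.2% for DMSO and the titles 0.5. The labels name a human panel, while the symbols are in rat style. A formaldehyde control named in the labels was not analysed here.

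Counts were tested with edgeR 4.0.16 in R 4.3.3: filterByExpr (minimum count 10, minimum total 15), TMM scaling, robust quasi-likelihood fits, and Benjamini-Hochberg adjustment over all probes, called under 0.05. The 8 concentrations of each nitroalkane were fitted with DMSO or with medium of their set, 1 control at a time (27 libraries a fit). The reference compounds and both controls of a set shared 1 fit (24 libraries in set 1, 9 in set 2). NE and NM were compared on 6 libraries a concentration, 1NP with either on 12, and slopes on 24. Intervals of 95% are normal around the estimate and can be narrower than the F test implies. Libraries of 5475419 to 11122665 counts make 3 counts worth 0.270 to 0.548 CPM. The smallest chi-square per degree of freedom between replicates was 2.82, so no library was taken for a second copy of another. The code was tested on simulated data. The members and lists were chosen with earlier results of these data known. The rule for naming was: at 10 mM and for reference compounds up to 10 called members a comparison are named by size, members called against both controls are given by library, Mki67, Top2a, Cdk1, Ccnb1, Ccna2, Pcna, Mcm2, Mcm5, Rrm2 and Tk1 are named whatever their result, and up to 4 called genes are named for each wider list. Alternatives were DESeq2 1.42.0, RLE scaling, no filter, only the groups compared, the replicate block, probes summed per gene, omission of libraries that stood apart and of each library in turn. Replicate numbers come from the titles. Of 15 pairs of groups, BaP and DMSO alone had every same-number correlation over 0.1 (0.376, 0.164 and 0.530).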

Additional observations from a re-analysis of the deposited data

Results flagged for a closer look

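At 10 mM the levels under NE and under NM differed, by the test of the difference itself (edgeR, Benjamini-Hochberg adjusted), in 6 members. These are 6 of 27 tested member probes, and 11.7% of all probes were called in the same comparison. The log2 differences were -1.69 for Mcm3 (SE 0.27, adjusted p = 0.00628), -1.55 for Mki67 (SE 0.25, adjusted p = 0.00666), -0.99 for Tyms (SE 0.21, adjusted p = 0.0184), -2.67 for Mcm5 (SE 0.64, adjusted p = 0.0302), -3.35 for Kif23 (SE 0.87, adjusted p = 0.0422) and -1.66 for Gins2 (SE 0.45, adjusted p = 0.0491). In each of the 6, all 3 NE libraries lay under all 3 NM libraries, but 16 of the 27 tested member probes did not overlap. How many of all probes did not overlap was not counted, so the separation adds no support to these calls.

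The effect of 1NP against DMSO of set 2 differed from that of NM against DMSO of set 1 at 0.003 mM in Cdc6, by 3.35 (SE 0.77, adjusted p = 0.011), in Gins1, by 2.23 (SE 0.68, adjusted p = 0.0464), and in Tk1, by 1.75 (SE 0.42, adjusted p = 0.0141). It differed from that of NE in Tk1 at 0.03 mM, by 1.36 (SE 0.40, adjusted p = 0.0393), and at 0.1 mM in Tk1, by 1.30 (SE 0.40, adjusted p = 0.0276), Pcna, by 0.54 (SE 0.16, adjusted p = 0.025), and Mki67, by -0.74 (SE 0.21, adjusted p = 0.0187). These are 3 of 29 tested member probes against NM, where 6.53% of all probes were called. Against NE they are 1 of 29 at 0.03 mM, where 5.4% of all probes were called, and 3 of 31 at 0.1 mM, where 15.4% were. Both counts against NE lie under the share of all probes. With medium as the control of both sets these comparisons called 0 members by edgeR.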

How the results depend on the processing

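Counts of called members are given for settings that moved them by more than 1.5 times. Shares of all probes called under these settings are not given here. With DESeq2 they were 1 for 1NP 3 mM against DMSO, 2 for WY of set 2 against medium, 12 for NE minus NM at 10 mM and 1 for 1NP minus NE at 10 mM. With RLE scaling 1NP 3 mM against DMSO gave 1. Without the filter on low counts they were 4 and 8 for CITCO 20 µM against DMSO and medium, 3 for rifampin 20 µM against DMSO, 1 for medium against DMSO in set 1, 2 for WY of set 2 against medium and 5 for 1NP minus NE at 10 mM. With only the groups compared in the fit they were 1 for 1NP 3 mM, 0 for 1NP 10 mM, 2 for BaP, 1 for CITCO 20 µM, 4 for rifampin 20 µM and 1 for medium, all against DMSO. With the replicate block they were 2 for NE minus NM at 10 mM, 2 for rifampin 20 µM against DMSO and 1 for medium against DMSO in set 1, and the block moved no other count by that much. No paired analysis was possible for 1NP against its controls because they share no replicate numbers. Without the libraries that stood apart they were 20 for NE 3 mM and 2 for 1NP 3 mM against DMSO, 19 for NE minus NM at 10 mM, 1 for 1NP minus NM and 22 for 1NP minus NE at 10 mM. The NE slope called 2 without 10 mM. Summed over 0.003 to 1 mM, NM against DMSO gave 1 (only the groups compared) and 2 (without libraries that stood apart), NE against DMSO 5 and 5, NE against medium 3 and 1 and, with no filter, 1, 1NP against DMSO 11 and 10 and, with DESeq2, 7, and 1NP minus NE 7 with DESeq2 and 7 with no filter. That last count reversed its balance without NE 0.1 mM replicate 3, with 4 calls of which 1 was higher and 3 lower, against 3 higher and 1 lower.

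Leaving out 1 library at a time gave 6 to 11 and 5 to 13 calls for NE 3 mM, 12 to 18 and 10 to 17 for NE 10 mM, 2 to 4 and 2 to 4 for BaP, and 0 to 2 and 3 to 7 for CITCO 20 µM, against DMSO and medium in that order. It gave 0 to 1 for NM 10 mM, 1NP 10 mM and WY of set 1 against DMSO, for rifampin 20 µM against medium and for medium against DMSO in set 1, 0 to 5 for the latter in set 2, and 0 to 4 for WY of set 2 against medium. NE minus NM at 10 mM ran from 1 to 11, 1NP minus NE from 0 to 8 at 3 mM and from 0 to 17 at 10 mM, and the NE slope from 9 to 12. Summed over 0.003 to 1 mM it gave 0 to 1 for NM, 0 to 4 for NE and 0 to 5 for 1NP against DMSO, 0 to 1 for NE against medium, 0 to 2 for NE minus NM, 2 to 5 for 1NP minus NM and 1 to 7 for 1NP minus NE. Where a fit held fewer samples or tested fewer probes, that is how the setting was built, and beyond this the cause was not tested. Depth limits members under about 1 CPM, where a few counts decide a value.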
